A study of Fukomys damarensis with 16 samples.

Results

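The 100 genes described here were transcribed in both the ovary and the testis of the Damaraland mole-rat, Fukomys damarensis, and at lower levels in kidney, liver and brain. They were selected on their measured levels in these libraries, from 21082 genes. Levels are RPKM, reads per kilobase of gene model and per 1e6 reads, put on a log2 scale after adding 1. For each gene the gap was taken between the lowest of the 4 gonad libraries and the highest of the 12 other libraries. Genes whose mean in ovary or in testis was at least 8 times that of each of the other 4 tissues were left out, which removed 2357 genes, and the 100 genes with the largest gap were kept. The clause removed 21 genes that would otherwise have stood among the first 100, 7 of them high in ovary and 14 high in testis. The members are therefore genes that the gonads share, and every difference between gonads and other tissues below describes how they were chosen and is not tested.

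The Damaraland mole-rat is a burrowing rodent of Africa that lives in colonies in which few animals breed. Poly(A)-selected RNA was sequenced in 16 libraries, and each combination of tissue, sex and breeding status has 1 library. Brain, kidney and liver libraries come from breeders of either sex, from a male non-breeder labelled as 5 years old and from a female non-breeder labelled as 3 years old. The ovaries are those of a breeder and of a non-breeder of 3 years, and the testes those of a breeder and of a non-breeder of 5 years. No age is given for the breeders, so age and status cannot be told apart, nor can age and sex among the non-breeders. Of the 4 brain libraries, that of the non-breeding male is labelled brain and the others frontal brain. No treatment or genetic change is named in the labels. They do not say which libraries share an animal or whether animals were pooled, so p-values measure only the spread between these libraries, which may be technical in part.

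Ovary and testis arise from the same embryonic primordium. Both hold germ cells, which undergo meiosis, and both hold supporting cells (granulosa cells in the ovary, Sertoli cells in the testis) and steroid-producing cells (theca cells and Leydig cells). Genes known for activity in both organs include those of meiotic chromosome pairing, of transposon silencing in germ cells and of steroid hormone synthesis. The identifiers in the deposited table were not paired with gene names: 0 of 21082, and 0 of the 100 members, matched the RefSeq table of 33132 genes of assembly DMR_v1.0_HiC. The roles of the members, their sequences and the markers of the cell types above were therefore not analysed here. Members are called by identifier in a few cases and otherwise by rank, where rank 1 has the largest gap.

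Reads on genes, recovered from the RPKM values, numbered 15393003 to 27593857 per library. The deposited values of liver run high: divided by the read total that underlies the RPKM, reads on genes gave 1.55 to 1.97 in liver and 0.665 to 0.945 elsewhere. A member's lowest read number in a gonad library had a median of 389, and 16 members had fewer than 100 reads in at least 1 gonad library. The smallest was 9 reads, at rank 28. Outside the gonads many values rest on a few reads, and in liver the members held 6902 to 9195 reads in all.

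The gap ran from 5.05 at rank 1 to 1.03 at rank 100, with a median of 1.57 (log2). It was at least 2 in 26 members, at least 3 in 8 and at least 4 in 3. DMR_02152, at rank 1, stood at 150 RPKM in the breeding ovary, 206 in the non-breeding ovary, 48.3 in the breeding testis and 52.0 in the non-breeding testis. It was at 0 to 0.489 RPKM in the 12 other libraries. All 4 gonad libraries were thus far above the rest, and both ovaries stood above both testes. DMR_22167, at rank 2, was the most abundant member. Its level was 5777 RPKM in the breeding ovary, 2108 in the non-breeding ovary, 526 in the breeding testis and 462 in the non-breeding testis. The brain libraries averaged 12.7 RPKM (SD 1.38, n = 4), those of kidney 3.32 (SD 1.66, n = 4) and those of liver 0.409 (SD 0.31, n = 4). The brain level was thus low against the gonads but above the median of genes with a read, 5.63 RPKM in brain. The liver had almost none. DMR_22167 supplied 63.5% of the summed RPKM of the members in the breeding ovary and 35.1% in the non-breeding ovary. In the breeding and the non-breeding testis its share was 12.6% and 10.2%.

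**Figure D1:**
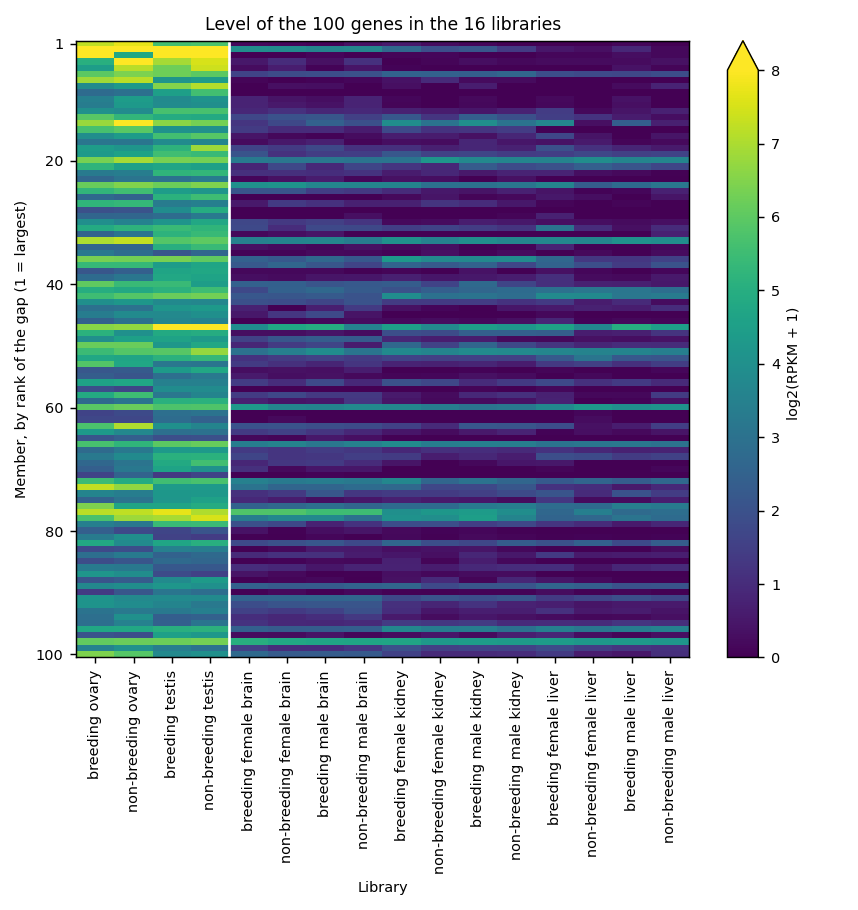
Level of each of the 100 members (rows, by rank of the gap) in the 16 libraries (columns) as log2(RPKM + 1), with colours capped at 8. The 4 gonad columns left of the white line are higher than the 12 others in every row, as the choice of members fixes, and 24 rows stay at 1 RPKM or more in all 12.

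The level in the gonads varied widely among members. The mean over the 4 gonad libraries was under 10 RPKM in 22 members and 100 RPKM or more in 10. The median member had 15.4 RPKM in ovary and 21.9 in testis, against 4.69 and 5.94 for all 21082 genes. After DMR_22167 the most abundant was DMR_09030, at rank 3, with a mean of 298 RPKM. The least abundant were DMR_03239, with 2.03, 4.80, 1.52 and 2.11 RPKM in the breeding ovary, non-breeding ovary, breeding testis and non-breeding testis, and DMR_12313, with 4.35, 2.38, 2.21 and 3.26. DMR_03239 was still nearly absent elsewhere, with a single value above 0 among the 12 other libraries, 0.0452 RPKM in the breeding male brain. At the edge of the choice, rank 99 (DMR_09290) had a lowest gonad value of 7.15 RPKM against 2.97 in the highest other library. Rank 100 (DMR_04320) had 12.7 against 5.71, a gap of 1.03. The gene just outside had 18.3 against 8.48, also a gap of 1.03 when rounded.

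**Figure D2:**
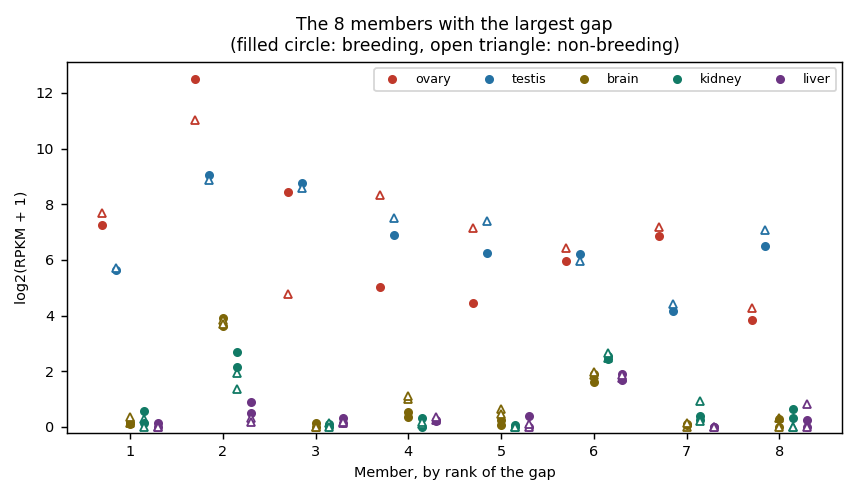
Values of the members ranked 1 to 8 in every library as log2(RPKM + 1), coloured by tissue, with filled circles for breeding and open triangles for non-breeding animals. The ovary points of ranks 3, 4 and 5 lie far apart, with 347 and 26.3, 31.9 and 321, and 20.8 and 140 RPKM in the breeding and the non-breeding ovary.

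The members fell into 3 classes by their level outside the gonads, with 1 RPKM as the line. In 33 members all 12 libraries of kidney, liver and brain were under 1 RPKM. In 24 members all 12 were at 1 RPKM or more, and the other 43 were mixed. The first class had a median gonad mean of 9.99 RPKM and the class expressed everywhere 57.3 RPKM, so the log2 scale with an added 1 lets in both low genes with high ratios and abundant genes with modest ones. The ratio of the lowest gonad to the highest other library had a median of 10.6 in the first class and 2.97 in the last. Rank 6 is an example of the last class, with 62.0, 85.1, 74.1 and 61.8 RPKM in the breeding ovary, non-breeding ovary, breeding testis and non-breeding testis. Its kidney mean was 4.79 RPKM (SD 0.379, n = 4), its brain mean 2.60 (SD 0.374, n = 4) and its liver mean 2.52 (SD 0.249, n = 4). In bulk samples such a level cannot tell fewer cells of a type from less RNA per cell.

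No read was found in any of the 12 libraries for 2 members, at ranks 9 and 28. They are also the 2 shortest members, with 156 and 126 bases, so few reads were to be found. The limit that a count of 0 allows, 3 reads over the 12 libraries, corresponds to 0.0897 RPKM at rank 9 and 0.111 RPKM at rank 28. Over the 4 gonad libraries together they had 429 and 217 reads, or 22.9 and 14.3 RPKM, at least 255-fold and 129-fold higher. These limits cover counting error only.

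Outside the gonads the share of reads on genes that fell on members was 1.3% to 1.73% in ovary and 1.09% to 1.15% in testis, against 0.0932% to 0.108% in brain, 0.0761% to 0.0920% in kidney and 0.0254% to 0.0385% in liver. All 4 brain libraries were at 1 RPKM or more for 44 members, all 4 kidneys for 36 and all 4 livers for 27. Over all 21082 genes the same order was seen, with 63.6%, 59.7% and 56.0%. The choice of members set an upper limit on each of these levels. Of the 98 members with a read outside the gonads, 41 had their highest value in a brain, 29 in a kidney and 28 in a liver library, against 39.8%, 26.8% and 33.5% of tested genes. Scaled to reads on genes, the numbers of members were 54, 36 and 8, so the share held by liver depends on the deposited scaling. The shares of tested genes were not rescaled, so they cannot be set beside these rescaled numbers.

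**Figure D3:**
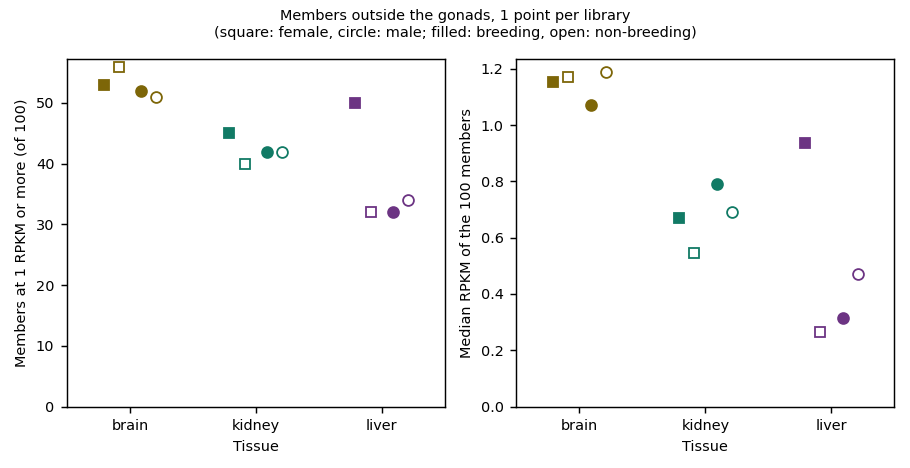
Number of members at 1 RPKM or more (left) and median RPKM of the 100 members (right) in each brain, kidney and liver library, with squares for females, circles for males, filled for breeding and open for non-breeding. The breeding female liver, at 50 members and 0.936 RPKM, lies above the other 3 livers, at 32 to 34 members and 0.265 to 0.470 RPKM.

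The breeding female liver stood apart from the other livers. It had 50 members at 1 RPKM or more, against 32 in the non-breeding female, 32 in the breeding male and 34 in the non-breeding male liver. Among the 93 members with a read in any liver, 50 were highest in the breeding female library, 13 in the non-breeding female, 14 in the breeding male and 16 in the non-breeding male. Over all tested genes with a read in a liver, 26.7% were highest in the breeding female library. That library also had the most genes at 1 RPKM or more of the 4 livers, 13129 against 12513 to 12675. The part of this wider detection in the members' values was not tested. Rank 14 (DMR_08170) was highest in the breeding female liver, at 11.9 RPKM, but the breeding male, at 4.28, also stood above the non-breeders. The non-breeding female liver had 0.242 RPKM and the non-breeding male 0.644.

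The balance between ovary and testis varied among the members within the limits of the 8-fold clause. The mean was higher in ovary for 42 members and higher in testis for 58, where 49.5% of 15954 genes were higher in ovary. Both ovaries were above both testes in 30 members, against 40.1% of those genes, and both testes above both ovaries in 49, against 42.5%. The values overlapped in 21 members and in 17.4% of those genes. Ovary was 2-fold or more above testis in 21 members, where 25.7% of 15954 genes were, and 2-fold or more below in 32, where 29.9% were. The clause limits these ratios, so the counts are given as a description. Evenness across the gonads was described by a 2-fold limit: the 4 gonad libraries lay within 2-fold of each other in 30.0% of members and in 38.5% of the 12181 genes at 1 RPKM or more in all 4.

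**Figure D4:**
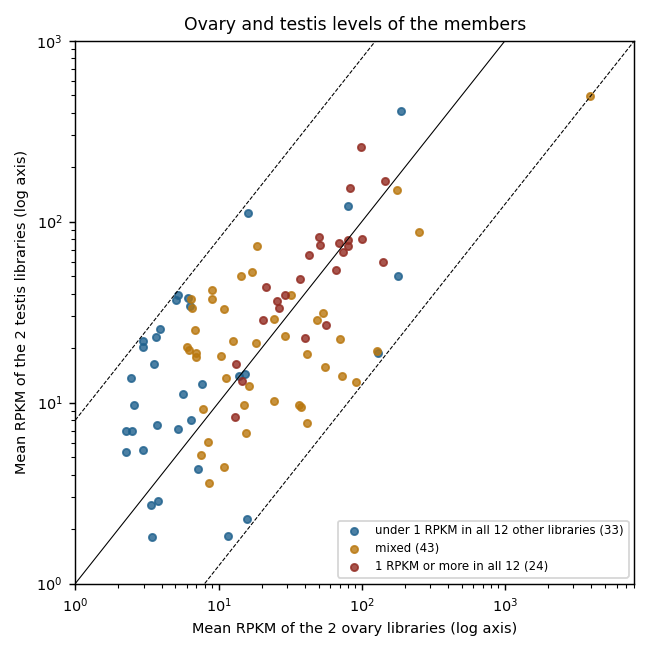
Mean RPKM in the 2 ovary libraries (horizontal) and the 2 testis libraries (vertical) for each member on log axes, coloured by class outside the gonads. The solid line marks equal levels and the dashed lines 8-fold differences. DMR_22167, with means of 3943 and 494 RPKM, lies at the lower dashed line.

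The balance differed in its values from class to class, which was not tested. Other genes of each class were not counted, so the values are not shown to be particular to the members. In the class under 1 RPKM elsewhere, testis was 2-fold or more higher in 17 of 33 members and ovary in 4, with a median log2 ratio of ovary over testis of -1.02. In the class at 1 RPKM or more everywhere, testis was 2-fold higher in 2 of 24 and ovary in 2, with a median of -0.25. The mixed class had 13 and 15 of 43, with a median of 0.31. The highest ratio of ovary over testis was 7.98, for DMR_22167, which only just escaped the clause. The next was 7.02, at rank 63, with 52.0 and 132 RPKM in the ovaries and 15.0 and 11.2 in the testes, breeder first. The highest ratio of testis over ovary was 7.59, at rank 26. The most even member was rank 98, with 66.0 and 71.7 RPKM in the ovaries and 72.5 and 79.3 in the testes, a highest value 1.20 times the lowest. The most uneven was DMR_09030, with a highest value 16.4 times the lowest, set by a single library, the non-breeding ovary.

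Breeding and non-breeding ovary were then compared. The choice of members used the lowest of the gonad values but not their status. With 1 library each there is no replicate check. Of the 100 members, 6 were 2-fold or more higher in the breeding ovary, where 9.67% of 14109 genes were, and 10 were 2-fold or more lower, where 3.65% were. With 1 RPKM added to both values the lower members numbered 6. DMR_09030 had 347 RPKM in the breeder and 26.3 in the non-breeder (12525 and 721 reads), a ratio of 13.2 with a 95% exact (Clopper-Pearson) interval of 12.3 to 14.3. The breeding testis, at 432 RPKM, and the non-breeding testis, at 388, were near the breeding ovary, so the non-breeding ovary alone was low. The next highest ratios were 3.56 at rank 76 (87.2 and 24.5 RPKM) and 2.74 for DMR_22167 (5777 and 2108 RPKM).

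DMR_18421 and DMR_18420, at ranks 4 and 5, lay the other way. DMR_18421 had 31.9 RPKM in the breeder and 321 in the non-breeder (736 and 5648 reads), a ratio of 0.0992 (interval 0.0917 to 0.107). DMR_18420 had 20.8 and 140 RPKM in the same order (560 and 2874 reads), a ratio of 0.148 (interval 0.135 to 0.162). In both genes the breeding ovary was the lowest of the 4 gonad libraries. Their identifiers are consecutive, which does not show whether they are neighbours or related in sequence. The next lowest ratio was 0.284, at rank 14, with 110 and 388 RPKM. The intervals cover counting error only and do not include the spread between animals.

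Fewer members differed between the 2 testis libraries. Only 1 member, DMR_04426 at rank 40, was 2-fold or more higher in the breeding testis, where 2.04% of 15452 genes were. Its levels were 42.0 RPKM in the breeder and 20.8 in the non-breeder (822 and 568 reads), a ratio of 2.02 (95% exact interval 1.81 to 2.25). With 1 RPKM added to both values it fell under 2-fold. In the breeding testis 4 members were 2-fold or more lower, where 5.07% of genes were. DMR_02808, at rank 18, had 35.0 RPKM in the breeder and 112 in the non-breeder (1163 and 5208 reads), a ratio of 0.312 (interval 0.292 to 0.332). DMR_18420 stood at 74.3 and 169 RPKM (1840 and 5833 reads), a ratio of 0.441. The remaining 2 were the short genes of ranks 9 and 28, at ratios of 0.471 and 0.462 on 95 and 49 reads in the breeding testis. DMR_18420 was the only 1 of the 100 members that was 2-fold or more lower in both breeding gonads, and 0 were 2-fold or more higher in both.

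**Figure D5:**
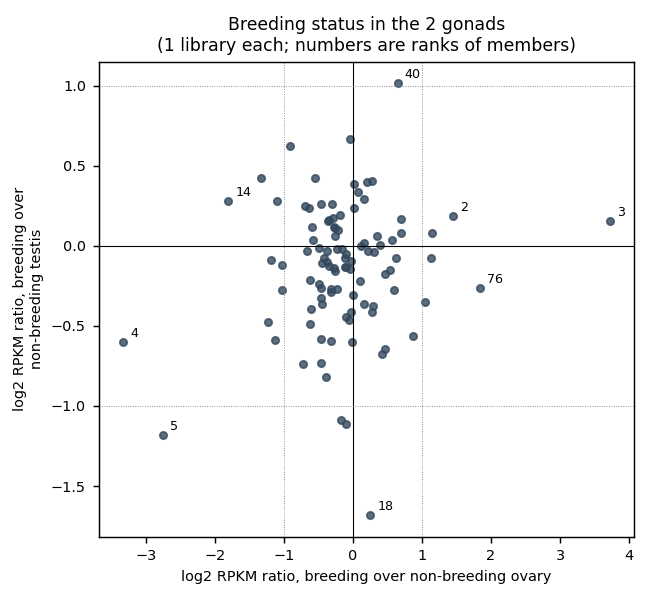
Log2 ratio of RPKM, breeding over non-breeding, in ovary (horizontal) and in testis (vertical) for each member, with 1 library behind each value. Dotted lines mark 2-fold differences and numbers are ranks. The lower left field, lower in both breeding libraries, holds 46 of the 100 members.

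Small differences leaned toward the non-breeding library in both organs, with 1 library on each side. The counts below are of members, which are not replicates, and the lean was not tested. Of the members, 66 were lower in the breeding ovary and 64 lower in the breeding testis, against 50.8% and 54.1% of the 12181 genes at 1 RPKM or more in all 4 gonads. Lower in both were 46 members, against 24.5% of those genes, and higher in both were 16, against 19.7%. The median log2 ratio of the members was -0.21 in ovary and -0.09 in testis, against -0.01 and -0.04 for those genes. Scaled to reads on genes, 41 members were lower in both, against 22.3%, and 56 were lower in the breeding testis, against 49.2%. By class, 18 of 33 members under 1 RPKM elsewhere, 18 of 43 mixed members and 10 of 24 expressed everywhere were lower in both. Scaled to reads on genes, the numbers were 18, 14 and 9. The classes share the same 4 libraries, so they do not count as separate observations. No share of other genes was taken per class.

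A model over all 16 libraries tested the difference between breeding and non-breeding gonads that ovary and testis share. It called 0 of the 100 members by limma at an adjusted p of 0.05, where 0.0% of 17327 genes were called, and 0 members by voom on the recovered reads. An unadjusted p under 0.05 was reached by 15 members and by 5.59% of all genes tested. Of the members, 38 passed the filter on low values through the gonads alone, where the choice made them high, so nothing is read from that count. The smallest adjusted p was that of DMR_18420, whose log2 value was -1.93 (SE 0.314, limma adjusted p = 0.112). Among alternatives that kept every ovary and testis library, the lowest adjusted p of DMR_18420 was 0.0795, by limma without the filter on low values. Its breeding gonads averaged 47.6 RPKM (SD 37.8, n = 2) and its non-breeding gonads 154 (SD 20.0, n = 2), and the breeder was lower in both organs. DMR_18421 had -1.94 (SE 0.457, limma adjusted p = 0.52). In the other direction DMR_09030 had 1.91 (SE 0.546, limma adjusted p = 0.743) and DMR_22167 0.82 (SE 0.324, limma adjusted p = 0.835). DMR_18420 and DMR_09030 passed the filter through the gonads alone, with at most 0.575 and 0.240 RPKM elsewhere. Each SE pools all 16 libraries, with 8 residual degrees of freedom against 1 for the gonads alone. The SE thus rests mostly on brain, kidney and liver, where the choice kept members low, so nothing is concluded from these p-values. The median over members was -0.11 and over all genes -0.01.

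The fitted differences depended on the gonad libraries kept. With either of the 2 testis libraries left out, the contrast is that of the ovaries alone, 1 library against 1. Among the members these fits singled out, DMR_09030 had a log2 difference of 3.675 and rank 76 of 1.792. DMR_18421 had -3.294, DMR_18420 -2.696 and rank 71 -0.9352. With either ovary library left out, rank 9 had -1.054 and rank 28 -1.06 in the testes. In these fits the lone library of a group is assumed to vary like the other tissues, so no call is read from them. The rule kept members low in brain, kidney and liver. Ranks 9 and 28 have no reads in those tissues. The highest value there was 0.240 RPKM for DMR_09030, 0.575 for DMR_18420 and 1.19 for DMR_18421. Whether the difference by status itself differed between ovary and testis was not tested.

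Kidney, liver and brain of breeding and non-breeding animals were compared in a fit of those 12 libraries with tissue and sex. Only 62 of the 100 members passed the filter of 1 RPKM in at least 2 libraries. Limma called 0 of them, where 0.0251% of 15964 genes were called. Voom called 0 of them, and over all genes 4 higher and 0 lower in breeders. An unadjusted limma p under 0.05 was reached by 4 members (6.45% of the 62, against 13.5% of all genes). The fitted difference was above 0 in 46 of the 62, against 53.3% of all genes, with a median of 0.15 against 0.02. Without the breeding female liver it was above 0 in 42 of 61, with a median of 0.10. The members' summed level was 328 and 299 RPKM in the breeding female and male kidney, and 248 and 254 in the non-breeding female and male kidney. In brain it was 326 and 325 for the breeders and 332 and 283 for the non-breeders, female first.

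DMR_08170 had the highest difference. It stood at 14.3 and 14.5 RPKM in the breeding female and male kidney against 7.22 and 7.44 in the non-breeding ones. In liver, female first, the values were 11.9 and 4.28 against 0.242 and 0.644, and in brain 1.37 and 4.63 against 2.29 and 2.86. It was higher in 5 of 6 pairs matched for tissue and sex (log2 1.15, SE 0.393, limma adjusted p = 0.287). The female brains were the pair that went the other way. DMR_02485 followed with 0.48 (SE 0.241, limma adjusted p = 0.41). The lowest differences were -0.22 for DMR_18421 (SE 0.137, limma adjusted p = 0.499) and -0.20 for DMR_17818 (SE 0.157, limma adjusted p = 0.598).

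Males and females were compared in the same fit. Limma called 0 of the 62 members, where 0.489% of 15964 genes were called. Voom called 0 members, and over all genes 109 higher and 106 lower in males. An unadjusted limma p under 0.05 was reached by 4 members (6.45%, against 19.4% of all genes). DMR_12245, at rank 79, came nearest. Its male mean was 1.22 RPKM (SD 0.689, n = 6) and its female mean 2.17 (SD 0.810, n = 6), and it was lower in the male in 6 of 6 pairs (log2 -0.53, SE 0.144, limma adjusted p = 0.0996). In the gonads it had 9.87 and 8.03 RPKM for the ovaries and 41.6 and 42.7 in the testes, the opposite order. DMR_03897 had -0.46 (SE 0.192, limma adjusted p = 0.226). DMR_07850 had a male mean of 8.08 RPKM (SD 1.80, n = 6) and a female mean of 5.72 (SD 0.530, n = 6), and was higher in males in 5 of 6 pairs (log2 0.41, SE 0.118, limma adjusted p = 0.109). DMR_12124 had 0.32 (SE 0.194, limma adjusted p = 0.383).

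The rule made no use of gene length. The members' median coding length, recovered from the RPKM values, was 1334 bases, against 1245 for the 17327 genes with 1 RPKM or more in at least 2 libraries and 1056 for all genes. Lengths under 600 bases were found in 13.0% of members and 19.4% of those genes, and lengths over 3000 bases in 17.0% and 13.0%. The longest member, at rank 65, had 12474 bases and a gonad mean of 3.32 RPKM. The median was 1149 bases in the class under 1 RPKM elsewhere and 1904 in the class expressed everywhere.

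Consecutive identifiers were found in 5 pairs of members, which hold 10 of the 100. The sources used here do not say what the order of the identifiers stands for. The pairs were ranks 4 and 5, 8 and 28, 13 and 40, 24 and 98, and 61 and 62. Ranks 24 and 98 had nearly the same level in the gonads, 70.9 and 66.0 RPKM in the breeding ovary and 86.8 and 79.3 in the non-breeding testis. Ranks 13 and 40 were alike in the breeding ovary, with 60.1 and 65.8 RPKM, and had 27.9 and 20.8 in the non-breeding testis. Ranks 8 and 28 both lay higher in testis than in ovary, with 89.9 and 13.9 RPKM in the breeding testis and 13.4 and 2.88 in the breeding ovary. These pairs were singled out after their values were seen.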

How the data were processed

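The authors deposited 1 table of RPKM values per gene and library. TopHat 1.3.1, a spliced aligner, is named in the submitters' processing notes, while build, annotation and counter were not given in the sources used here. Columns were matched to the 16 libraries by title. The members and lists were chosen with earlier results of these data known. Marker lists could not be used, since no identifier has a name.

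Whole reads, library divisors and lengths (in units of 3 bases, taken as coding length) were recovered from the RPKM, and rebuilt every deposited value to within a relative error of 3e-14. All values gave whole reads within 1e-06, and voom on those reads called 6 genes higher and 6 lower in breeding gonads. Both the recovery and the model were tested on simulated data. The recovery gave 99.8% of reads and 98.4% of lengths right. With 200 genes changed 4-fold by status in both gonads, the model found 97% of them, and 7.18% of its calls were false. That simulation gave every tissue the same spread, which the real libraries need not have, and its size was set and not estimated from them. In the real data DMR_18420 and DMR_09030 had log2 differences of -1.93 and 1.91, near 4-fold, and were not called. The 97% therefore does not say what share of 4-fold changes could be found in these libraries. Tests used limma 3.58.1 in R 4.3.3 (lmFit, eBayes with trend) on log2(RPKM + 1), a scale that understates changes of low genes, with Benjamini-Hochberg adjustment over all genes at 1 RPKM or more in at least 2 libraries. The gonad model held tissue, a status effect shared by ovary and testis, and status and sex effects shared by kidney, liver and brain. Ratios of 2 single libraries used genes at 1 RPKM or more in either. Named members are the 2 at each end of the gap, of the gonad mean and of each difference; others are given by rank. Alternatives were other pseudocounts, filters, scalings, voom, other clauses and leaving out each library.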

Additional observations from a re-analysis of the deposited data

Results flagged for a closer look

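The summed level of the members was checked in the 4 libraries of brain, kidney and liver, along with their share of reads and their median, 9 checks in all, by the gap of the outermost library to its neighbour as a share of the range (limit 0.829). Chance passes this limit in about 1 of 20 groups, and the 4 libraries of a tissue differ in sex and status. In brain the share was 0.87, from 283 RPKM in the non-breeding male against 325 to 332 in the other 3, and that library is the one labelled brain and not frontal brain. In liver it was 0.836, from 266 RPKM in the breeding female against 210 to 219. Neither the share of reads nor the median passed the limit in brain, kidney or liver.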

How the results depend on the processing

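Under another pseudocount (0.1 or 5), scaling to reads on genes, a clause of 4-fold or 16-fold, or none, 73, 78, 84, 77, 90 and 79 of the 100 genes were chosen again, and 80 to 100 when 1 library was left out. The number of members called between breeding and non-breeding gonads was 0 under every setting with all 4 gonad libraries. Over all genes these settings called at most 8 higher and 13 lower, of 21082 without the filter on low values. Fits without 1 gonad library left 1 organ to carry the contrast, and no call is read from them. For status and for sex in kidney, liver and brain the number of members called was 0 in every fit run. Over all genes the most called for status were 21 higher and 36 lower of 15865, without the breeding female brain. For sex the most were 323 higher and 426 lower of 15869, without the breeding female liver. Counts of members 2-fold apart stayed within 1.5 times in total. With 1 RPKM added, those lower in the breeding ovary went from 10 to 6 and those higher in the breeding testis from 1 to 0. Leaving out ovary or testis libraries one at a time was chosen after seeing the data for the count between ovary and testis, which ran from 54 to 56 against 53. The labels carry no replicate numbers and name no animals by which libraries could be paired. A fit with the 6 pairs of the same tissue and sex (for sex, of the same tissue and status) as blocks, chosen after seeing the data, called 0 members for status and 0 for sex. Over all genes it called 25 higher and 6 lower in males, against 53 and 25 without the blocks. Low levels outside the gonads rest on few reads.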

Other observations

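DMR_08170 was lower in the breeding ovary (110 against 388 RPKM) and higher in both breeding kidneys and both breeding livers than in their non-breeding partners. In brain the female pair had the order of the ovary (1.37 against 2.29 RPKM) and the male pair the reverse (4.63 against 2.86). The difference between these organs was not tested.

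Ranks 10 and 11 had similar read numbers in every library. Their recovered reads agreed within 5 reads or 50% in all 16 libraries, the only pair of members to do so, and were equal in 8 of the 12 libraries outside the gonads. They had 1646 and 1869 reads in the gonads and 46 and 59 outside, on lengths of 936 and 1128 bases. Their levels were 20.5 and 18.7 RPKM in the non-breeding ovary, 13.1 and 13.5 in the breeding testis and 15.8 and 14.7 in the non-breeding testis. Whether the authors' counting gave the same reads to both was not tested, so the 2 are uncertain as separate members. This pair was noticed after its values were seen.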
